A study of Mus musculus with 6 samples.

Results

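The 3 libraries described here hold RNA of naïve B cells from the spleen of C57BL/6 mice with wild-type TET2, and they carry the numbers 2, 3 and 4. They were chosen by their labels, as the wild-type group among 6 libraries in all; the other 3 are labelled TET2 knockout and were not used. The study profiled transcript levels in both genotypes. The description is of the wild-type baseline alone, so no genotypes were compared and no test between groups was made. Age and sex are not stated in the labels, and neither is how many mice the libraries stand for, so the spread between libraries may be technical.

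Naive B cells are mature lymphocytes that have not yet met the antigen their receptor recognises. Each carries a surface immunoglobulin of the IgM and IgD classes, paired with the signalling chains CD79A and CD79B, and recirculates between spleen, lymph nodes and blood as a resting, non-dividing cell. Such cells are also antigen-presenting cells: they take up what their receptor binds and show its peptides to helper T cells on MHC class II molecules. In the spleen most belong to the follicular subset, with a smaller marginal zone subset at the border of the white pulp.

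Total counts were 42682762, 43343789 and 35101788 in libraries 2, 3 and 4. Levels of 1 gene between libraries are given as CPM, the usual depth-scaled count, with library sizes normalized by TMM, and levels of different genes are compared as TPM, the count per base of the gene's summed exon length scaled so that each library has the same total. A rank or a sum given in CPM is one of reads, not of level per length. Detected means at least 1 TPM in every library. Library 4 stood apart from the other 2. Pearson's r of log2(CPM + 1) across the 21633 gene names with a count was 0.999 between libraries 2 and 3 and 0.997 between library 4 and either of them, values across genes that are not independent replicates. The common biological coefficient of variation (edgeR, the spread beyond counting noise) was 12.4% over the 3 libraries and 6.01% without library 4. Of 8491 gene names with a mean of at least 10 CPM, library 4 was 1.5-fold or more above the mean of the other 2 for 162 (1.91%) and as far below it for 104 (1.22%). The same counts were 6 (0.0707%) and 43 (0.506%) for library 2, and 21 (0.247%) and 18 (0.212%) for library 3. Values are therefore given for each library, and the genes that set library 4 apart are described after the gene groups.

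The cells carried the markers of their label. Ighm, the constant region of the IgM heavy chain, was at 13502, 14710 and 12900 TPM in libraries 2, 3 and 4. Cd79a was at 3100, 3071 and 3201 TPM. Fcer2a, which encodes CD23, a low-affinity IgE receptor of follicular B cells, was at 2190, 2111 and 1682 TPM, and Ms4a1, which encodes CD20, at 908, 967 and 1220 TPM. All 4 were among the first 100 gene names by mean TPM. Ighd, the IgD constant region and the fifth marker, was not analysed here. In bulk RNA a lower level can mean fewer cells of a type or less RNA per cell, and these cannot be told apart.

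Of 41053 gene names, 21633 had at least 1 count in any library, 16992 had one in every library and 12005 (29.2%) were detected. Most detected names lay at middle levels: 6806 were at 10 to 100 TPM and 3387 at 1 to 10 TPM, with a median of 27.2 TPM. The 89 names at 1000 TPM or more held 32.6% ± 1.59 of all TPM (SD, n = 3), and the 1723 at 100 to 1000 TPM held 38.8% ± 0.475. The 3387 lowest held 1.54% ± 0.126. The 89 highest include features shorter than a sequenced fragment, such as Igkj5 and Mir6236. TPM is inflated for these, so the share of the 89 is not one of abundance. By counts rather than TPM, the first 100 names held 19.4% ± 0.761 of the reads. Protein-coding names held 93.6% ± 0.267 of the counts, with 9704 of 20542 detected. The first 100 names by TPM were largely the same in each library, with 87 of them shared by all 3.

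**Figure D1:**
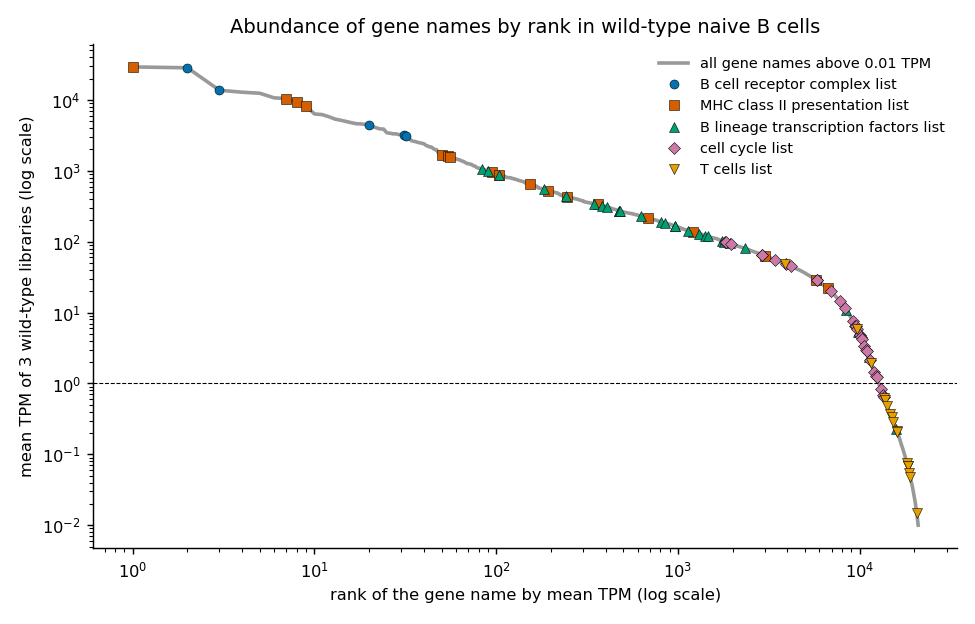
Mean TPM of each gene name over the 3 wild-type libraries (vertical axis, log scale) against its rank (horizontal axis, log scale), with the members of 5 gene lists marked and a dashed line at 1 TPM. Cd74 and Igkc lead the curve at 29264 and 28412 TPM, the B lineage transcription factors start at 1062 TPM (Spib) with a median of 175 TPM, and 14 of 17 T cell markers fall under 1 TPM.

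The top of the ranking was made of antigen presentation, receptor and mitochondrial genes. Cd74, the invariant chain that guides MHC class II molecules through the cell, was first by both CPM and TPM, at 29758, 29282 and 28750 TPM. Igkc, the constant region of the kappa light chain, came next at 26174, 28493 and 30568 TPM. Their ranges overlap, so their order is not set by these libraries. Ighm followed, and its range overlapped those of the mitochondrial mt-Cytb and mt-Co1, which had means of 12855 and 12434 TPM. After mt-Nd1 came the 3 class II chain genes H2-Aa, H2-Eb1 and H2-Ab1. B2m, the light chain of MHC class I, followed at 4960, 6256 and 7809 TPM, with library 4 highest.

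The rest of the first 25 names by either scale was mixed. By CPM it held the translation factor genes Eef2 and Eef1a1 and the actin cytoskeleton genes Actb and Coro1a. It held Ddx5, an RNA helicase gene at 2803, 2770 and 3285 CPM. It also held Ptprc, which encodes the leukocyte phosphatase CD45, at 2528, 2730 and 2720 CPM, Macf1, a linker of actin and microtubules, at 3252, 3634 and 2946 CPM, Ly6e at 2643, 2892 and 2858 CPM and Shisa5 at 2197, 2313 and 2212 CPM. Macf1, with 26689 bases of exons, was 310th by TPM. By TPM the list held the ribosomal protein genes Rpl8, Rplp1 and Rpl4 and names of very short features. The kappa joining segments Igkj5, Igkj2 and Igkj4, of 42, 43 and 38 bases, were at 4768, 4194 and 3882 TPM, and Mir6236, of 123 bases, at 4735, 8046 and 4621 TPM. For features shorter than a sequenced fragment TPM is inflated, so these ranks are not read as abundance. Yam1, a name among the first 10 by CPM that had no gene type here, was uneven at 2683, 4294 and 3041 CPM. Gm26917, which lies close to Yam1 on chromosome 17, and Mir6236 were also highest in library 3. The source of the reads at Yam1, Gm26917 and Mir6236 was not tested. Their levels are therefore not read as those of B cell genes.

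The B cell receptor list had 5 measured members of 8 listed, all detected, with a median of 4406 TPM against 27.2 TPM over all detected names. Igkc (chr6:70726435-70726757, + strand, GRCm38) has a summed exon length of 323 bases, Ighm (chr12:113418950-113422730, - strand) of 1486 bases. Cd79b was at 4366, 4280 and 4573 TPM and Cd79a lower, with no overlap of their ranges. The 2 chains work as a dimer that carries the receptor's signal into the cell. The lambda constant region Iglc2 was at 3244, 3027 and 3213 TPM, overlapping Cd79a, while Iglc1 and Iglc3 were not analysed here. The kappa constant region thus stood at a mean of 28412 TPM and Iglc2 at 3162 TPM. For a gene as short as Igkc the level rests on how length is treated: with 200 bases taken from each length, Igkc came to 65516 TPM. Taking a fixed length off raises short genes over long ones by construction. The alternative therefore does not show which value is nearer the level.

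Receptor gene segments were measured widely. Of 259 immunoglobulin names 221 were detected, and together they held 1.35% ± 0.0820 of the counts, or 8.90% ± 0.375 of TPM. The TPM share includes the very short joining segments, whose TPM is inflated, so it is not read as abundance. Among heavy chain variable segments 98 of 114 were detected, among kappa variable segments 97 of 104, and among lambda variable segments 3 of 3. Kappa variable segments summed to 1287, 1549 and 1749 CPM in libraries 2, 3 and 4, heavy chain ones to 626, 759 and 709 CPM, and the 3 lambda ones to 229, 267 and 254 CPM. The kappa segment with the most counts, Igkv10-96, was at 84.7, 92.2 and 107 CPM, so that the kappa total was spread over many segments. The heavy chain segment with the most counts, Ighv1-26, was at 36.4, 41.1 and 39.5 CPM. These 2 segments were chosen after their values were seen, and segments of 1 family are similar in sequence, so the count of any 1 of them is uncertain.

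Co-receptors and inhibitory receptors of the B cell were abundant as a group. All 17 listed genes were detected, 14 of them at 100 TPM or more, with a median of 537 TPM. Faim3, the Fc receptor for IgM, was at 2487, 2646 and 2202 TPM. Cd22, an inhibitory receptor for sialic acid, was at 1336, 1287 and 911 TPM, lowest in library 4. Cr2, which encodes complement receptor CD21, was at 639, 611 and 740 TPM. The low end of the list was Cd5, at 3.336, 2.305 and 1.920 TPM, and Lair1, at 1.78, 2.14 and 2.78 TPM. Cd5 is a marker of B-1 cells. In the list for B-1 and age-associated B cells 12 of 14 genes were detected. The median of that list was 4.68 TPM, and its highest member had a mean of 65.1 TPM. In the signalling list that starts at the receptor, all 23 genes were detected between 46.6 and 1235 TPM, with a median of 249 TPM. Its highest member was the phosphatase gene Ptpn6 (SHP-1), at 1298, 1208 and 1198 TPM, followed by the B cell kinase gene Blk at 942, 861 and 751 TPM and the adaptor Bank1 at 794, 781 and 795 TPM. The kinases that act first after receptor binding came to 463 ± 8.30 TPM for Syk, 327 ± 29.0 TPM for Btk and 297 ± 6.75 TPM for Lyn (mean ± SD, n = 3). Btk and Lyn overlapped, and Syk lay above both in every library. Fyn, another kinase of the Src family, was among the lowest of the list at 52.0 ± 1.73 TPM.

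**Figure D2:**
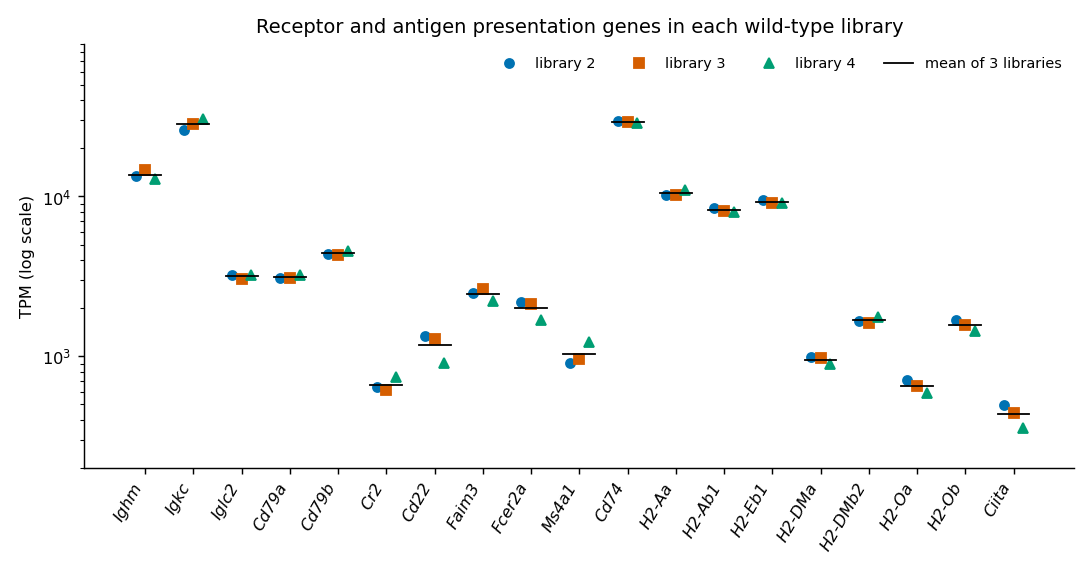
TPM (log scale) of receptor and antigen presentation genes in libraries 2, 3 and 4, with a bar at the mean of the 3. The 3 points lie close together for most genes, such as Cd79a from 3071 to 3201 TPM, while library 4 is lowest for Cd22 (911 TPM) and Ciita (357 TPM) and highest for Ms4a1 (1220 TPM).

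Genes of MHC class II presentation had the highest mean summed TPM of the listed programmes as counted. In library 4 the mitochondrially encoded list summed to more, at 67058 TPM. Several genes of that list share nearly all of their 50-base words with other transcripts, and the part of this in its sum was not tested. All 18 members of the class II list were detected, 15 of them at 100 TPM or more. Together they held 6.63% of all TPM, with sums of 67062, 65801 and 65917 TPM in the 3 libraries. The SD of the sums was 697 TPM (n = 3). Below Cd74, the chains of the peptide-binding molecules followed: H2-Aa (chr17:34282744-34287827, - strand) at 10212, 10178 and 10988 TPM, H2-Eb1 (chr17:34305877-34316199, + strand) at 9521, 9141 and 9140 TPM, and H2-Ab1 (chr17:34263209-34269418, + strand) at 8429, 8154 and 7965 TPM. The ranges of these 3 do not overlap. The chains of H2-DM and H2-O, which respectively load peptides onto class II molecules and restrain that loading, lay lower. H2-DMb2 was at 1684 ± 72.9 TPM, H2-Ob at 1562 ± 127 TPM, H2-DMa at 951 ± 52.1 TPM, H2-Oa at 651 ± 62.9 TPM and H2-DMb1 at 527 ± 50.6 TPM. H2-DMb1 and H2-DMb2 share 22.7% and 24.8% of their 50-base words with transcripts of other names, so the split between them is uncertain. Ctss, the protease that removes the invariant chain, was at 1376, 1555 and 1863 TPM. Of the regulators, Ciita, the class II transactivator, was at 497, 444 and 357 TPM, above the chain gene H2-Eb2, at 335 ± 7.59 TPM, and with a mean below those of the other chain genes, though its range overlapped that of H2-DMb1. The subunits of the RFX complex that holds it at class II promoters came to 62.9 ± 12.7 TPM for Rfx5, 29.0 ± 4.24 TPM for Rfxank and 21.9 ± 1.76 TPM for Rfxap.

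Class II promoters are known for a conserved module of short boxes, the X box bound by RFX and the Y box bound by NF-Y, and the windows that hold such letters are shown because they belong to class II chain genes whose levels are given here. RefSeq promoters (GRCm38.p6, 250 bases before to 50 after the annotated start) were matched for 8 of 9 class II chain genes. In 7 of these 8 the letters TGATTGG occurred before the start with the letters AAC lying 20 to 35 bases upstream of them on the gene's strand. The same arrangement was in 413 of 32851 promoters of all genes (1.26%), and TGATTGG on either strand in 7.23%. The letters were chosen after these promoters had been looked at, so the counts describe the windows and test nothing, and a match is not a binding site. In the 7 windows below, capitals mark AAC and TGATTGG. They span chr17:34287859-34287918 (- strand) for H2-Aa, chr17:34305761-34305820 for H2-Eb1, chr17:34325528-34325587 for H2-Eb2, chr17:34238801-34238860 for H2-Ob, chr17:34092289-34092348 for H2-Oa, chr17:34145112-34145171 for H2-DMb2 and chr17:34153083-34153142 for H2-DMb1 (+ strand for the last 6).
H2-Aa: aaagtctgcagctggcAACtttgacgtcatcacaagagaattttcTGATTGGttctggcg
H2-Eb1: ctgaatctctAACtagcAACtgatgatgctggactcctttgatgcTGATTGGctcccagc
H2-Eb2: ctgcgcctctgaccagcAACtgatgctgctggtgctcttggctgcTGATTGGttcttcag
H2-Ob: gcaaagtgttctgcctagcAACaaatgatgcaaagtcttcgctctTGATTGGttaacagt
H2-Oa: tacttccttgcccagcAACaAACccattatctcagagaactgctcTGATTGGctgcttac
H2-DMb2: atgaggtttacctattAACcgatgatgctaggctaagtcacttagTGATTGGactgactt
H2-DMb1: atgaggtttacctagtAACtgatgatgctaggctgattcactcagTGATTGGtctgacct

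The genes with these windows ranged from 335 ± 7.59 TPM for H2-Eb2 to 10459 ± 458 TPM for H2-Aa, so genes that hold the same letters differed widely in level. H2-DMa, whose promoter window held no TGATTGG arrangement of this kind, was at 951 TPM, between H2-Ob and H2-Oa. TGATTGG began 45 bases before the start in H2-Oa, the nearest, and 102 bases before it in H2-Eb2, the farthest.

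MHC class I presentation was also measured in full, with 17 of 17 genes detected and a median of 267 TPM. After B2m came the heavy chains H2-K1, at 2350, 2756 and 2464 TPM, and H2-D1, at 2134, 2331 and 2247 TPM. The transporter gene Tap1 was at 254, 287 and 208 TPM. Psmb8, a subunit of the immunoproteasome that cuts the peptides, was at 271, 283 and 277 TPM. Nlrc5, the class I transactivator, was lowest at 69.1, 90.5 and 47.2 TPM. Like Ciita, it was lowest in library 4.

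Transcription factors of the B lineage were detected in 27 of 28 cases, with a median of 175 TPM. Spib, an ETS factor needed for receptor responses, was at 1101, 1057 and 1028 TPM. Klf2, which keeps lymphocytes resting and recirculating, was at 1090, 1036 and 858 TPM and overlapped Spib. Pou2af1, the B cell coactivator OCA-B, was at 836, 917 and 889 TPM, and Ets1 at 561, 564 and 511 TPM. Pax5, which holds cells in the B lineage, was at 468, 465 and 374 TPM, and its range overlapped with none of its neighbours. Ebf1, which acts with Pax5, was lower at 100 ± 7.59 TPM, and Bach2 was at 113, 121 and 77.2 TPM. The factors of early B cell stages or other uses were lowest, with Myb at 6.02, 5.88 and 4.30 TPM and Lef1 at 2.50, 2.91 and 1.69 TPM. Pou2f1, a factor found in most cell types, was at 0.326, 0.211 and 0.156 TPM; 47.6% of its exon bases lie in exons of another gene name, and whether this lowered its count was not tested. Of 16 factors that direct other lineages only Zbtb7b, at 51.0 ± 3.46 TPM, and Tbx21, at 4.35 ± 0.941 TPM, were detected. The erythroid factors Gata1 and Tal1 and the T cell factor Gata3 had 0 counts in all 3 libraries, where the floor of 3 counts lies at 0.0688 to 0.0869 CPM.

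**Figure D3:**
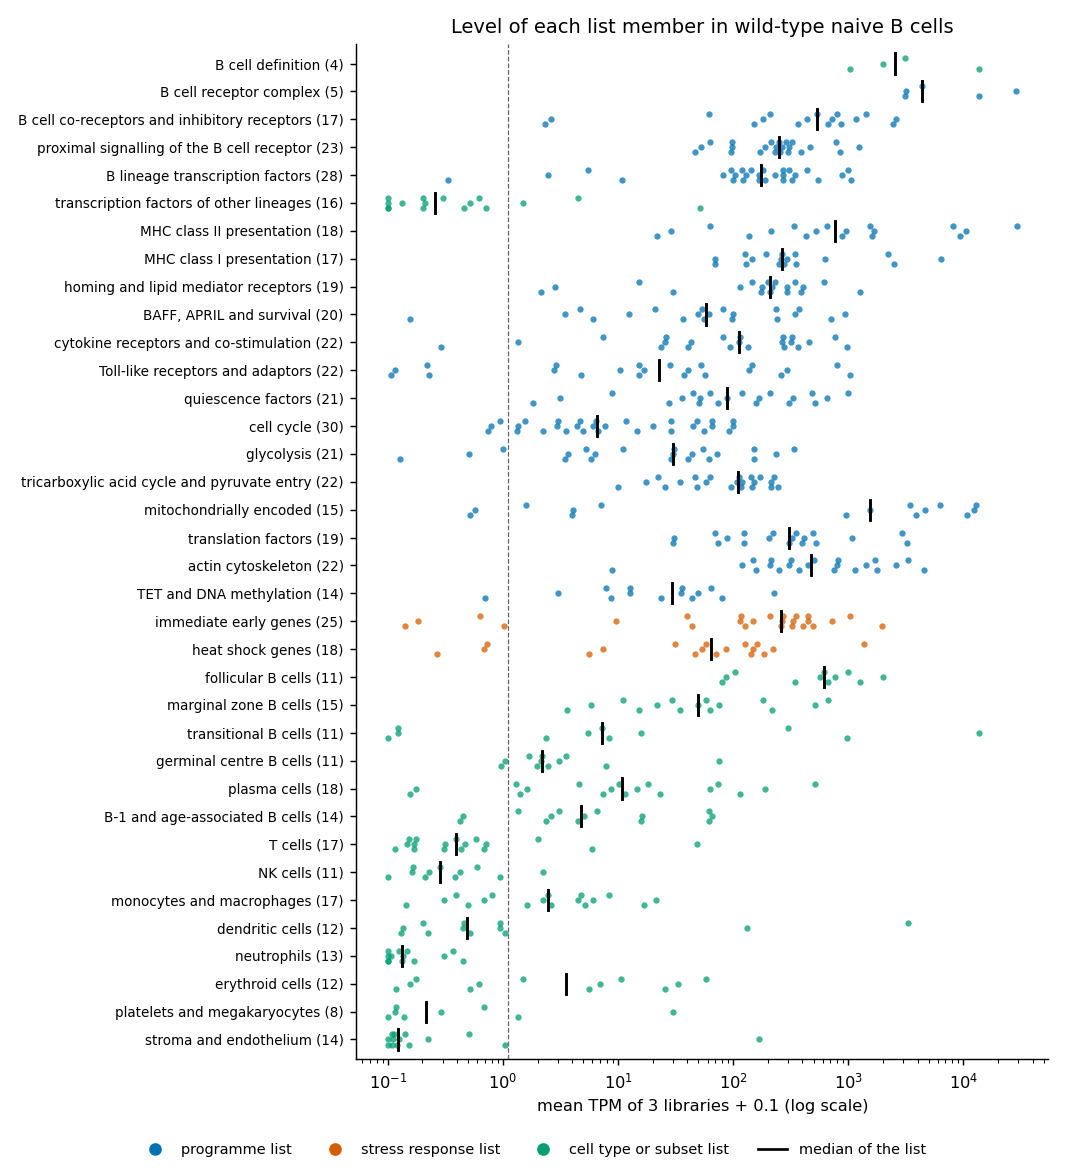
Mean TPM plus 0.1 over the 3 libraries (log scale) of every measured member of the 36 gene lists, 1 line for each list with its number of measured members, a black bar at the list's median and a dashed line at 1 TPM. The medians of the B cell receptor complex and class II lists stand at 4406 and 767 TPM, and those of the T cell, NK cell, neutrophil and stroma lists under 1 TPM.

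Among the lists for B cell subsets, that of follicular cells had the highest median, 615 TPM, with 11 of 11 measured members detected. Fcer2a was its highest member, and Klf2 was also among its leading genes. The marginal zone list had all 15 members detected, with a median of 49.1 TPM. Cr2 and Mzb1, its highest members, are not particular to that subset; Mzb1 shares 53.5% of its 50-base words with other transcripts. Notch2, the receptor that marginal zone cells depend on, was at 214, 228 and 208 TPM, and its target Dtx1 at 199, 167 and 184 TPM. Cd1d1 was at 63.5, 58.5 and 50.8 TPM, Cd9 at 11.5, 10.2 and 11.2 TPM and S1pr3 at 15.4, 10.3 and 19.8 TPM. Shares of the subsets cannot be read from these bulk levels.

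Genes of immature and of antigen-experienced B cells were mostly low. In the transitional list 8 of 11 genes were detected, with a median of 7.165 TPM. Of its members 3 were at 100 TPM or more, with Ighm highest. Rag1, of the recombinase that builds receptor genes, had a mean of 0.0222 TPM, and its partner Rag2 had 0 counts. Cd93, a marker of transitional cells, was at 8.78, 7.66 and 5.05 TPM, while Vpreb3 was at 270, 287 and 336 TPM. In the germinal centre list 9 of 11 genes were detected, with a median of 2.07 TPM. Its highest member was Bcl6, the factor that directs the germinal centre, at 72.6, 80.5 and 74.1 TPM. In the plasma cell list 13 of 18 were detected, with a median of 10.8 TPM. Prdm1 was at 1.40, 0.868 and 1.30 TPM, Sdc1 (CD138) at 7.90, 6.60 and 7.43 TPM, and Tnfrsf17 had 0 counts in 2 of 3 libraries. The switched constant regions varied most. Ighg1 was at 46.2, 8.95 and 14.4 TPM, highest in library 2, and Ighg2c at 1.29, 11.9 and 0.201 TPM, highest in library 3. Ighm was at 12900 TPM or more in every library.

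Receptors for homing were detected in 19 of 19 measured cases, with a median of 208 TPM. Cxcr5, which draws B cells into follicles, was at 590, 597 and 657 TPM. S1pr1, which lets lymphocytes leave the tissue, was at 405, 400 and 351 TPM, and Ccr7, the receptor that leads to T cell zones, at 313, 307 and 406 TPM. Gpr183 (EBI2), which places cells within the follicle, was at 147, 120 and 170 TPM. Cxcr4 was the most uneven of these, at 228, 148 and 313 TPM. Of 17 members at 10 CPM or more, 3 were 1.5-fold or more higher in library 4, against 1.91% over all names. S1pr2, a receptor of germinal centre cells, was at 2.71, 1.52 and 1.93 TPM.

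Survival of mature B cells depends on the cytokine BAFF. Tnfrsf13c, the BAFF receptor, was at 714, 668 and 727 TPM, and Tnfrsf13b (TACI) at 364, 332 and 332 TPM. Below them in the pathway, Nfkb2 was at 356, 386 and 378 TPM and its kinase Map3k14 at 68.6, 61.5 and 53.2 TPM. Among the survival proteins of the BCL2 family Mcl1 was highest at 944, 890 and 960 TPM. Bcl2 itself was at 58.2, 51.6 and 49.6 TPM and Bcl2l1 at 3.46, 3.02 and 3.59 TPM, with no overlap between these 3. The death-promoting Bcl2l11 (BIM) was at 20.8 ± 0.775 TPM and Bax at 237 ± 19.5 TPM.

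Receptors by which B cells sense help and danger were unevenly spread over their families. Il4ra, the receptor chain for interleukin-4, was at 344, 334 and 303 TPM and Il21r at 491, 487 and 377 TPM, while Il7r, a receptor of early B cells and T cells, was at 0.244, 0.106 and 0.227 TPM. Cd40, which receives T cell help, was at 138, 131 and 137 TPM. The co-stimulatory ligand Icosl was at 840, 806 and 643 TPM, Cd86 at 24.4, 22.9 and 30.6 TPM and Cd80 at 1.632, 1.161 and 1.001 TPM. Of the Toll-like receptors, Tlr1 at 296 ± 26.4 TPM and Tlr9, the sensor of unmethylated DNA, at 147 ± 11.8 TPM were highest, followed by Tlr7 at 57.4 ± 5.45 TPM. Tlr4 was at 16.7 ± 2.70 TPM, overlapping Tlr2 at 15.2 ± 1.01 TPM, and Tlr6 was at 15.04 ± 0.127 TPM. Tlr5, Tlr8, Tlr11 and Tlr13 had means of 0.126 TPM or less. Unc93b1, which carries Toll-like receptors to endosomes, was at 1024, 1039 and 1050 TPM, and Cd180 with its partner Ly86 at 261 ± 33.1 and 806 ± 179.9 TPM.

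The cell cycle list was low beside that of quiescence factors. No cell cycle gene had a mean of 100 TPM and the median of the 30 was 6.46 TPM, against 88.8 TPM for the 21 quiescence factors. The highest were Pcna at 106, 88.8 and 104 TPM, Cdk4 at 99.0 ± 4.93 TPM and Cdk2 at 92.9 ± 12.9 TPM. The helicase subunits Mcm2 to Mcm7 lay between 28.8 TPM (Mcm7) and 65.9 TPM (Mcm5). Genes used in mitosis were far lower, with Mki67 at 4.18, 3.38 and 2.70 TPM, Top2a at 4.57 ± 0.361 TPM, Cdk1 at 1.26 ± 0.321 TPM and Ccnb1 at 0.687 ± 0.0785 TPM. The cyclin genes of entry into the cycle ranked as Ccnd2 at 28.7 TPM, Ccnd3 at 20.01 TPM and Ccnd1 at 0.842 TPM, with no overlap of ranges. On the side of rest, Btg1 was at 496, 467 and 501 TPM, Txnip at 675, 629 and 652 TPM, the cyclin kinase inhibitor Cdkn1b (p27) at 159, 144 and 168 TPM and Foxo1 at 168, 168 and 165 TPM. Immediate early genes were also abundant: 21 of 25 were detected with a median of 262 TPM. Zfp36, which shortens the life of cytokine messages, was at 2264, 1862 and 1822 TPM, Junb at 1167, 875 and 1090 TPM, Fos at 790, 615 and 742 TPM and Myc at 127, 139 and 113 TPM. These genes are known to rise when cells are stimulated or handled, and the part of handling in their levels was not tested.

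Genes of energy metabolism were mostly moderate. All 22 genes of pyruvate entry and the tricarboxylic acid cycle were detected, with a median of 111 TPM and citrate synthase (Cs) highest at 259, 244 and 229 TPM. In glycolysis 18 of 21 were detected, with a median of 29.9 TPM. Aldoa was highest at 333, 335 and 339 TPM, and the glucose transporter Slc2a1 was at 75.2, 64.5 and 77.9 TPM. Some genes that cells in general use heavily were counted at low levels. Gapdh was at 14.4, 10.7 and 7.65 TPM, Pgk1 at 5.71, 5.92 and 6.97 TPM and Pgam1 at 3.54, 3.46 and 3.14 TPM. They share 24.7%, 53.9% and 36.2% of their 50-base words with transcripts of other gene names, where the median over detected names is 0%. Counting without an option for reads that map to several places leaves out reads of such words, and its part in these levels was not tested.

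Mitochondrially encoded genes showed the same split more sharply. Names with the mt- prefix held 2.01, 2.12 and 2.86% of the counts in libraries 2, 3 and 4. Cytochrome b (mt-Cytb) was at 11763, 11669 and 15135 TPM and mt-Nd1 at 9869, 9911 and 12360 TPM, and these 2 genes share no 50-base words with other transcripts. By contrast mt-Co2, mt-Co3, mt-Atp6, mt-Nd3 and mt-Nd4l, which share 98.0 to 100% of theirs, were between 0.418 and 6.98 TPM. The exceptions were mt-Co1 and mt-Nd4, at 12434 and 3442 TPM with 51.1% and 62.2% of words shared, and mt-Atp8, at 0.471 TPM with 0% shared and 21.1% of its bases within another gene. The low values are levels of the reads that were counted, and the part of shared words in them was not tested.

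**Figure D4:**
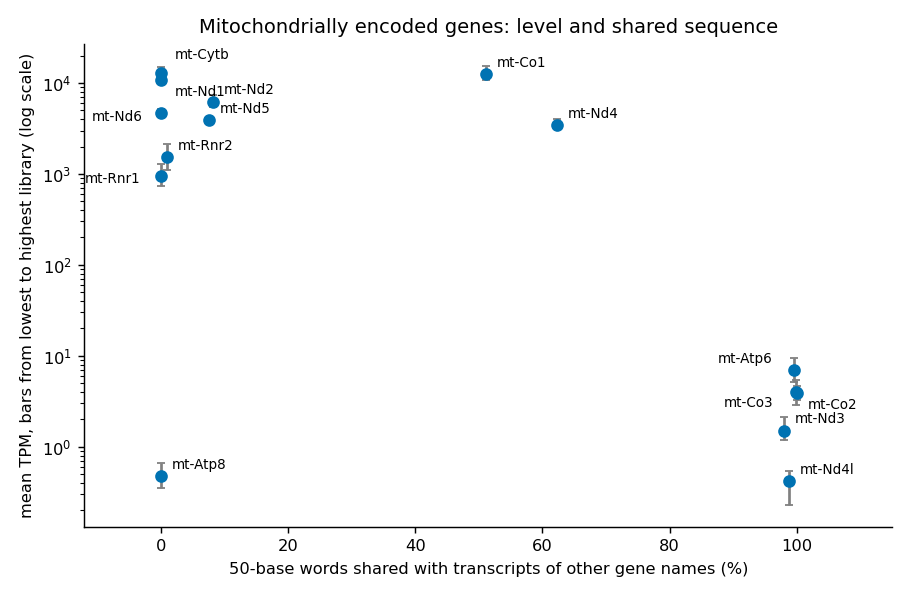
Mean TPM (log scale, bars from the lowest to the highest library) of the 15 mitochondrially encoded genes listed, against the share of their 50-base words found in transcripts of other gene names. The 5 genes at 98.0% or more lie under 10 TPM, and of the other 10 only mt-Atp8 does.

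Ribosomal protein genes held 1.98% ± 0.347 of the counts, at 1.71, 1.86 and 2.37% in libraries 2, 3 and 4, with 81 of 84 names detected. Rpl8 was at 4786, 4954 and 5120 TPM, the highest of them, and 6 names were under 10 TPM. The median was 178 TPM for the 55 names that share under 25% of their words, 120 TPM for 23 names sharing 25 to 50%, and 39.4 TPM for 6 names sharing more. The same genes have many processed pseudogenes, so the level of any single member is uncertain. The share of the group is likewise that of the reads counted, and the part of shared words in it was not tested. Among translation factors Eef2 was at 3326, 3408 and 2952 TPM and overlapped Eef1a1, at 2898, 3018 and 2952 TPM. Genes of the actin skeleton were high, with a median of 474 TPM. Tmsb4x, which binds free actin, was at 3720, 4005 and 6044 TPM, Actb at 3465, 3028 and 3490 TPM and Coro1a at 2573, 2419 and 2854 TPM. Actg1, close in sequence to Actb, was counted at 8.69 ± 2.25 TPM with 37.4% of words shared.

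The enzymes of DNA methylation, the subject of the study, were at modest levels in the wild-type cells, with 13 of 14 detected and a median of 29.3 TPM. Among the enzymes that oxidize 5-methylcytosine, Tet3 was at 54.75, 52.76 and 41.05 TPM, Tet2 at 25.6, 27.2 and 17.6 TPM and Tet1 at 0.653, 0.709 and 0.441 TPM. The ranges of the 3 do not overlap, and each was lowest in library 4. The maintenance methyltransferase Dnmt1 was at 85.8, 84.1 and 71.7 TPM, above the de novo enzymes Dnmt3a at 13.1, 13.4 and 11.4 TPM and Dnmt3b at 9.714, 8.499 and 7.398 TPM. Uhrf1, which brings Dnmt1 to replicating DNA, was at 7.71 ± 1.17 TPM. Ogt, a partner of the TET enzymes that adds sugar to proteins, was highest at 251, 254 and 182 TPM.

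Markers that define other cell types were mostly low, but several of the lists had detected members. Of 17 T cell markers 3 were detected, among them Lck at 53.8, 47.3 and 45.4 TPM and Lat at 5.81 ± 0.844 TPM. The list summed to 65.4, 58.4 and 56.1 TPM in the 3 libraries, most of it from Lck. The markers that define T cells were far lower: Cd3e had a mean of 0.0542 TPM, Cd4 of 0.0482 TPM, Cd8a of 0.0687 TPM and Trac of 0.586 TPM. Of 11 NK cell markers only Prf1 was detected, at 2.14 ± 0.359 TPM, and Ncr1 had a mean of 0.0646 TPM. Of 13 neutrophil markers none was detected and Ltf, Elane, Retnlg and Lcn2 had 0 counts in all libraries, with list sums of 0.533, 1.43 and 1.16 TPM. Of 17 monocyte and macrophage markers 11 were detected, with a list median of 2.35 TPM, the highest being Lyz2 at 18.2, 24.0 and 21.4 TPM, and C1qa was at 3.83, 5.70 and 5.69 TPM. Their sums were 70.8, 87.7 and 72.4 TPM. The dendritic cell list was carried by Ly6d, at 2637, 2795 and 4541 TPM, and Bst2, at 113, 122 and 158 TPM, which B cells also express, while Flt3, Siglech and Xcr1 were each under 1 TPM on average. Of 12 erythroid markers 7 were detected, with a list median of 3.44 TPM. The highest were Tfrc, the transferrin receptor that other cells use too, at 57.9 ± 3.45 TPM, and Car2, from 29.4 to 37.2 TPM, and the globin gene Hbb-bs was at 14.8, 24.9 and 37.3 TPM. The erythroid list summed to 118.91, 134.74 and 171.62 TPM. Of stroma and endothelium only Pecam1 was detected, at 178, 182 and 147 TPM. Platelet markers were detected for Itgb3 alone, at 29.7 ± 2.37 TPM, with Pf4 at 0 counts in 2 of 3 libraries.

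Of the 36 lists, the heat shock genes, which encode chaperones of protein folding, had the largest share of members higher in library 4. Of 18 listed, 14 had a mean of at least 10 CPM, and 13 of these were 1.5-fold or more higher in library 4 than in the mean of the other 2, against 1.91% over all names. The median log2 difference of the 14 was 1.13, against 0.03 over all 8491 names, and between libraries 3 and 2 it was 0.12. Hsph1 was at 54.5, 68.1 and 219 CPM, Dnaja1 at 56.2, 57.4 and 165 CPM, Dnajb1 at 78.0, 70.7 and 202 CPM and Cacybp at 39.5, 44.7 and 106 CPM. In each case libraries 2 and 3 lay close together and library 4 alone was high. The stress-inducible Hspa1b was at 0.736, 0.535 and 15.3 TPM, also far higher in library 4. The exception among the 14 was Hspa4l, at 6.92, 7.05 and 7.95 TPM. Of 21 immediate early genes at 10 CPM or more, 0 were 1.5-fold higher in library 4 and 1 was as far lower. Over all names these shares were 1.91% and 1.22%. The median log2 difference of the 21 was 0.20, against 0.03 over all 8491 names. Of 9 mitochondrially encoded genes 3 were 1.5-fold higher in library 4.

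**Figure D5:**
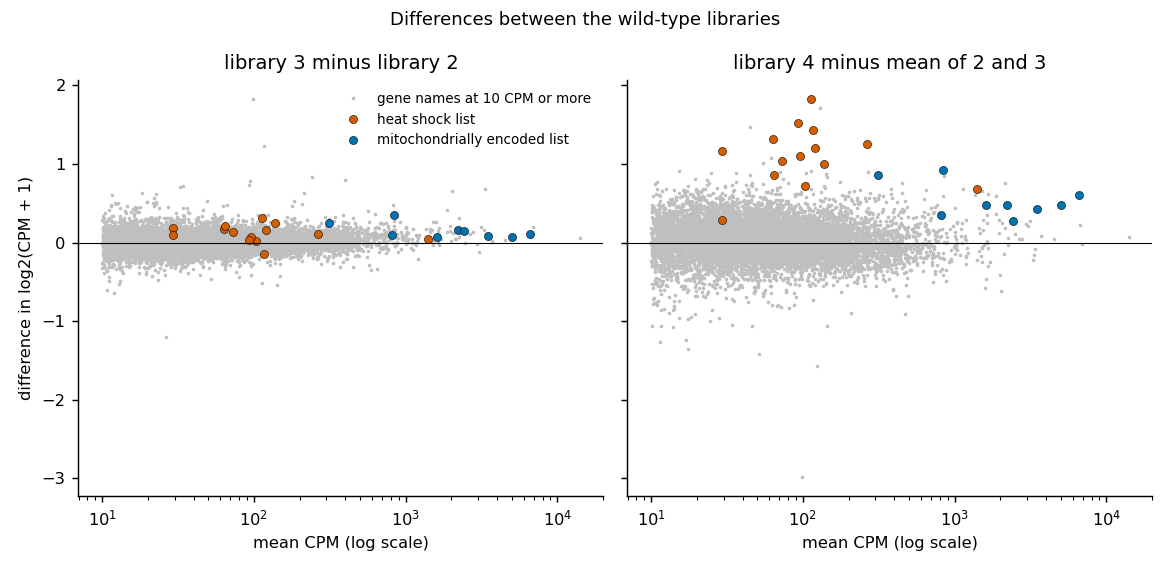
Difference in log2(CPM + 1) between library 3 and library 2 (left) and between library 4 and the mean of libraries 2 and 3 (right) against mean CPM (log scale), for the 8491 gene names at 10 CPM or more. Heat shock genes lie around 0 on the left, with a median of 0.12, and well above 0 on the right, with a median of 1.13, where the mitochondrially encoded genes have a median of 0.48.

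Other genes differed by library without belonging to a list. Gpr171 was at 77.3, 69.5 and 243 CPM and the sulfotransferase gene Chst10 at 29.3, 26.1 and 78.7 CPM, both high in library 4. Ceacam16 was at 19.0, 25.2 and 7.99 CPM and A630081J09Rik at 13.001, 16.02 and 5.445 CPM, both low in it. Gm4759, named by the rule for variability, was at 141, 180 and 52.8 CPM, and 3 more names without a known product, Gm23935, Gm17552 and Gm26917, were in the same set of 12. Gm23935, which is 57 bases long, was at 61.73, 222.2 and 13.96 CPM. At the other end, genes past 100 CPM with the smallest spread were Golga4, at 134, 134 and 134 CPM, D17Wsu92e, at 138 CPM in each, and Csk, the kinase that holds Src family kinases inactive, at 879, 881 and 878 CPM. Prpf4b, Lrrfip1 and Phf3 completed this set, with means of 254 ± 0.591, 183 ± 0.479 and 177 ± 0.555 CPM (SD, n = 3). Long genes ranked very differently by the 2 scales. Phip, with 33312 bases of exons, was 422nd by CPM and 5243rd by TPM, and Herc1, with 27464 bases, 445th and 4707th. The 4 others with the largest such gaps among the first 500 names by CPM were 4932438A13Rik, Celf2, Mdn1 and Dmxl1, with 26985, 25884, 21836 and 21860 bases of exons.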

How the data were processed

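RNA-seq libraries of naive B cells were made with a kit that keeps strand, per the labels' protocols. The authors deposited raw fragment counts per gene name, counted in pairs with featureCounts 1.5.1 over exons of GENCODE vM3, per the file headers. By the same headers there was no strand option and no option for multi-mapped reads or overlapping genes. A fragment lying in exons of both a gene and an overlapping antisense gene is then counted for neither. STAR 2.3.0e and GRCm38.p3 are named in the submitters' processing notes. The summed exon length of each gene name, in bases, was deposited beside the counts. The table also held 6 columns that match no sample, and these were left out, as were the 3 knockout libraries.

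TPM was computed here from counts and length, CPM with TMM library sizes (edgeR 4.0.16, R 4.3.3), log2 values as log2(CPM + 1) or log2(TPM + 0.1). The common biological coefficient of variation came from edgeR with an intercept only, after filterByExpr with a minimum count of 10, and was tested on simulated data. No test was made, since there is 1 group of 3 libraries. Gene types, and the share of each gene's 50-base words found in transcripts of other names, came from GENCODE vM21.

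The wild-type libraries and the 36 lists were chosen with earlier results of these data known. Genes were named by rule: the first 25 by CPM and by TPM, list members, the 12 most variable at 10 CPM or more, the 6 least variable at 100 CPM or more, and the 6 whose rank differs most between CPM and TPM among the first 500 by CPM. Lists hold members not analysed here: Ighd, Iglc1, Iglc3, P2ry8, Hbb-b1, Hbb-b2 and Ahsp. A count of 3 in a library, used as a floor, covers counting error only. Alternatives were other normalizations, filters, detection levels, pseudocounts and units, other lengths, gene sets left out, and leaving out each library. Some genes that the rule names are left out of the text.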

Additional observations from a re-analysis of the deposited data

How the results depend on the processing

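No paired analysis was possible because only 1 group of libraries was used and no groups were compared. Leaving out each library in turn gave a coefficient of variation of 6.01 to 14.7%, with 6.01% where library 4 was left out, 12125 to 12423 detected names, 19.0 to 19.8% of counts in the first 100 names, 1.32 to 1.40% in immunoglobulin, 2.07 to 2.49% in mitochondrially encoded and 1.79 to 2.12% in ribosomal protein names, and T cell markers summing to 57.3 to 61.9 TPM. Shares depended on the unit: as TPM in place of counts they were 33.6% for the first 100 names, 8.90% for immunoglobulin, 5.89% for mitochondrially encoded and 4.41% for ribosomal protein names. The TPM shares of the first 100 and of immunoglobulin names include very short features whose TPM is inflated. Without mt- names the first 100 held 18.2% of counts. T cell markers summed to 70.4 TPM after rescaling without mt- and immunoglobulin names. Detected names ranged from 10979 to 13066 with other levels and rules. Of the named genes, 21 of 56 moved by more than 1 SD with 200 bases taken from each length, 30 of 56 with immunoglobulin names left out of TPM, and 23 of 54 with mt- names left out. Leaving names out scales all remaining TPM of a library by the same factor and changes no order within it. Which genes moved in these last cases therefore rests mainly on their SD between libraries. With 1 of 3 libraries left out a mean cannot move by 1 SD, but the means of some named genes moved by over 1.5 times. Without library 4, Hsph1 went from 46.4 to 26.2 TPM, Gpr171 from 168 to 99.8 TPM, Dnaja1 from 31.1 to 19.9 TPM, Dnajb1 from 149.7 to 99.4 TPM and Chst10 from 41.5 to 26.9 TPM, and without library 3 Gm23935 went from 5166 to 2023 TPM. List medians moved in 12 of 36 cases with log2(TPM + 1), in 3 of 36 with uncounted members left out and in 6 of 108 with 1 library left out. Depth limits the low end: 3 counts correspond to 0.0688 to 0.0869 CPM. For names at 1 to 10 TPM counting noise alone has an SD of 0.14 on the log2 scale of counts, at the median count. The median SD between libraries was 0.13, but on log2(CPM + 1), where the added 1 shrinks the spread at low levels. The 2 values therefore do not show how much of the spread is counting noise.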

Other observations

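Long noncoding RNAs, which belonged to no list, held 0.598% ± 0.103 of the counts (lincRNA names, SD, n = 3), with 173 of 1614 names detected; the genes given here were chosen after their values were seen. Malat1, a nuclear RNA of speckles, was at 796, 1183 and 588 TPM in libraries 2, 3 and 4, and Neat1, which builds paraspeckles, at 68.0, 68.8 and 39.4 TPM. Both were lowest in library 4. Xist, the RNA that silences an X chromosome in female cells, was at 269, 249 and 229 TPM, while Ddx3y and Kdm5d of the Y chromosome had at most 2 counts in a library. The only name placed on Y that was detected, Erdr1, had 1334, 1247 and 886 counts; it lies in the region that X and Y share. Gas5, a host of small nucleolar RNAs, was at 239, 208 and 205 TPM.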
